A study of Caenorhabditis elegans with 2 samples.

Results

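The X chromosome peaks described here are the sites on X, away from tRNA genes, at which tagged MCD-1 was recovered by chromatin immunoprecipitation and sequencing (ChIP-seq). They were taken from the authors' conservative peak list as all chromosome X peaks whose summit lay over 200 bp from any tRNA gene. This gave 357 of 3903 peaks, or 9.15% of the list. A further 74 X peaks at tRNA genes were left out, so X held 431 peaks in all. The comparison set was the 3319 autosomal peaks that passed the same tRNA rule.

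The animals were whole C. elegans young adults aged 65 hours, grown from starved L1 larvae after bleaching, of strain RW12215 with the allele st12215[mcd-1::TY1::EGFP::3xFLAG] II. This allele is a CRISPR insertion at the endogenous mcd-1 gene, and both samples carry it. There was 1 group with 2 biological replicates, recovered with an antibody against GFP according to the sample description, although the antibody field of the labels reads mcd-1. The labels record the sex as not collected, and a whole animal mixes germline with somatic cells, so no peak can be given to a cell type. An untagged or input control was not used here, the sequencing depth is unknown, since read counts are not in the peak lists, and no test between conditions was possible. With 2 replicates, the spread given below is all the error information there is.

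MCD-1 is a zinc finger protein first studied as a modulator of programmed cell death, with genetic links to the retinoblastoma pathway of the worm. The C. elegans X chromosome is unusual in its gene content and regulation: it is poor in genes needed by the germline, where it is largely kept silent, and rich in genes for neuronal and muscle functions. In hermaphrodites a condensin-like dosage compensation complex loads onto both X chromosomes and lowers their expression. Its recruitment sites carry a sequence named MEX, for motif enriched on X.

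Different sequences stood under the strongest X peaks at gene promoters and under a group of strong X peaks that lay mostly elsewhere. The letters are those of RefSeq's WBcel235 genome, the assembly of ce11, read on the plus strand over 100 bases centred on the summit. The first lines show strong promoter-proximal peaks, with capitals marking GAGCG, which reads CGCTC where it lies on the minus strand. They are shown because 18 of the 20 strongest promoter-proximal X peaks held this word.
puf-9, chrX:5841256-5841355: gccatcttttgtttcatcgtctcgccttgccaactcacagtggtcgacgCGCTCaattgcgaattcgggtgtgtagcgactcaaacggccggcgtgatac
trap-2 and ile-2, chrX:768235-768334: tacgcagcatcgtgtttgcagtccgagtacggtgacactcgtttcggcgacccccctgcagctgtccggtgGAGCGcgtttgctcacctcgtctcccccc
ZC506.1, chrX:9958766-9958865: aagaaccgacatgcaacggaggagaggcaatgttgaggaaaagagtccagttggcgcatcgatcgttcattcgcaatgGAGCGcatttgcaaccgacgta
nmat-1 and ucr-2.1, chrX:12018100-12018199: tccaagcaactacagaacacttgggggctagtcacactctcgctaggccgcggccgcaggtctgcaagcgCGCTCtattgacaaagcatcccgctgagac
ppk-3, chrX:12975779-12975878: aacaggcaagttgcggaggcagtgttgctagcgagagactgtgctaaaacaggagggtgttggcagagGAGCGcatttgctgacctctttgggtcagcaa
atf-6, chrX:12480622-12480721: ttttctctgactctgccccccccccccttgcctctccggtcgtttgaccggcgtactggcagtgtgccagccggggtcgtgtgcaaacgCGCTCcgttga
hsp-3, chrX:6092125-6092224: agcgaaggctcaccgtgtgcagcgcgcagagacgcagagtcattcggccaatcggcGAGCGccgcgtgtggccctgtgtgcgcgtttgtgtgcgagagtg

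In 5 of these 7 windows, those of trap-2 with ile-2, ZC506.1, nmat-1 with ucr-2.1, ppk-3 and atf-6, GAGCG was followed after 3 bases by TTGC. This longer arrangement was looked for only after the sequences had been seen. The windows of puf-9 and hsp-3 held GAGCG without it.

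The next lines show X peaks with the MEX core, GCGCAGGG, in capitals, which reads CCCTGCGC on the minus strand. They are shown because this 8-letter core had the largest ratio of its X share to its autosomal share among the 24 motifs searched.
intergenic, nearest gene W02H3.3, chrX:11094160-11094259: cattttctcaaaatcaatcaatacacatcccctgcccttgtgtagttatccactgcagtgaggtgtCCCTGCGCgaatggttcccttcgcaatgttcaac
intergenic, nearest gene hpk-1, chrX:4209217-4209316: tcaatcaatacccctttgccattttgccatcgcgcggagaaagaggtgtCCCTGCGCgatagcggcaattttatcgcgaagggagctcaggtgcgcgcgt
downstream of F25E2.2, chrX:806623-806722: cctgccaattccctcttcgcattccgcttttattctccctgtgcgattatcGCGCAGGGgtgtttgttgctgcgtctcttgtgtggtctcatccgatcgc
upstream of nspc-17, chrX:14525852-14525951: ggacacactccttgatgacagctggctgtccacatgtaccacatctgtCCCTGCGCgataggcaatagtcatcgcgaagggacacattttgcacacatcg
intron of mom-1, chrX:6296511-6296610: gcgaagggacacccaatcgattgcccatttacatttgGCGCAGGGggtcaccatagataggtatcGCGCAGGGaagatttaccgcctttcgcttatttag
exon of pks-1, chrX:5429503-5429602: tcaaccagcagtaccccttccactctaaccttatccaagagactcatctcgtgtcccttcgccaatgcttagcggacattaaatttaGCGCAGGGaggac
intron of Y41G9A.17, chrX:2997064-2997163: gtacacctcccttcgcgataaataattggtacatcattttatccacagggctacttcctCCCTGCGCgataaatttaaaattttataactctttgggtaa
intergenic, nearest gene xol-1, chrX:8036414-8036513: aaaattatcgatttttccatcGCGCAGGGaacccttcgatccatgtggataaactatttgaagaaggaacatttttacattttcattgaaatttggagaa

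The MEX core lay between -29 and 37 bp of the summit in these windows. The peak upstream of nspc-17 is itself promoter-proximal, with its summit 721 bp before the gene. The window in mom-1 held it 2 times. The word GCGAAGGG, which differs from the core in a single letter, was noticed after the sequences had been seen. It occurred in lower case in 6 of the windows above, all but those of F25E2.2 and xol-1.

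Peaks were sparse on X. The 357 peaks gave 20.2 per Mb over 17.7 Mb, against 40.2 per Mb on the autosomes, a ratio of 0.501. Among single autosomes the density ran from 26.5 per Mb on V to 53.4 on III, so X lay below all 5. Peaks covered 0.655% of X and 1.25% of the autosomes. Along X the 3 equal lengths held 112, 93 and 152 peaks, and the 17 full Mb held 10 to 36 each, with a median of 19. The tRNA rule itself lowered the X count more, since 17.2% of X peaks lay at tRNA genes against 4.41% of autosomal peaks. X carries 276 of the 612 tRNA genes, or 45.1%.

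**Figure D1:**
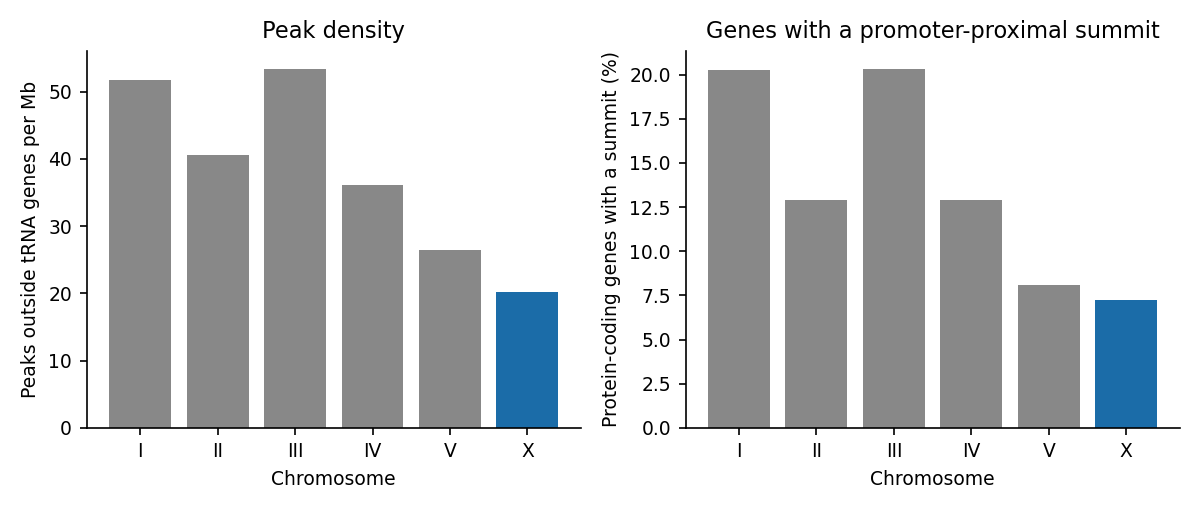
The left panel plots peaks outside tRNA genes per Mb for each chromosome, and the right panel the percentage of its protein-coding genes with a promoter-proximal summit, as bars with X in blue. X is lowest in both panels, at 20.2 peaks per Mb and 7.21% of genes, and V is next, at 26.5 per Mb and 8.11%.

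The peaks on X were also slightly weaker. Their median signal value, which is the authors' own measure per peak and has no stated scale, was 130 against 149 on the autosomes, a ratio of 0.875. In each replicate's own ranked list, with values as multiples of that replicate's median over all conservative peaks, the X median was 0.850 in replicate 1 and 0.941 in replicate 2. The autosomal medians were 1.02 and 1.00. The X to autosome ratio was therefore below 1 in each replicate, at 0.831 and 0.939, but by unequal amounts. No X peak outside tRNA genes was among the 25 strongest of the whole list, and 6 were among the first 100, 37 among the first 500 and 78 among the first 1000.

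No X summit lay between 124 and 221 bp from a tRNA gene, so the limit split no cluster of peaks. The nearest retained summit lay 221 bp from a tRNA gene, at chrX:8036263-8036595. Its window is printed above under its nearest protein-coding gene, xol-1, which is 4849 bp away. The signal of this peak was 322, and it gave 3.13 times the median in replicate 1, with no overlapping peak in the ranked list of replicate 2. The farthest summit left out lay 124 bp from a tRNA gene, with a signal of 357 and replicate values of 2.11 and 2.69. The next retained summit was 1064 bp away.

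The replicates gave similar values at most X peaks, as the plot of both replicates shows. Of the 357 peaks, 238 (66.7%) overlapped a peak in replicate 1's own thresholded list, where the share over all conservative peaks was 72.1%. In replicate 2's list 239 (66.9%) did, where the share over all peaks was 68.8%. Both lists held 197 of the peaks (55.2%, against 59.0% of all conservative peaks) and neither held 77 (21.6%, against 18.1%). In the longer ranked lists 349 had a match in both replicates. Across these 349 peaks, chosen by the authors for reproducible rank and sharing the same 2 libraries, Spearman's rho was 0.811. Of them, 17 (4.87%) differed over 2-fold between replicates, as multiples of each replicate's median. The share over all matched conservative peaks was 4.79%. The median log2 ratio of replicate 1 to replicate 2 was -0.15 on X and 0.03 on the autosomes.

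**Figure D2:**
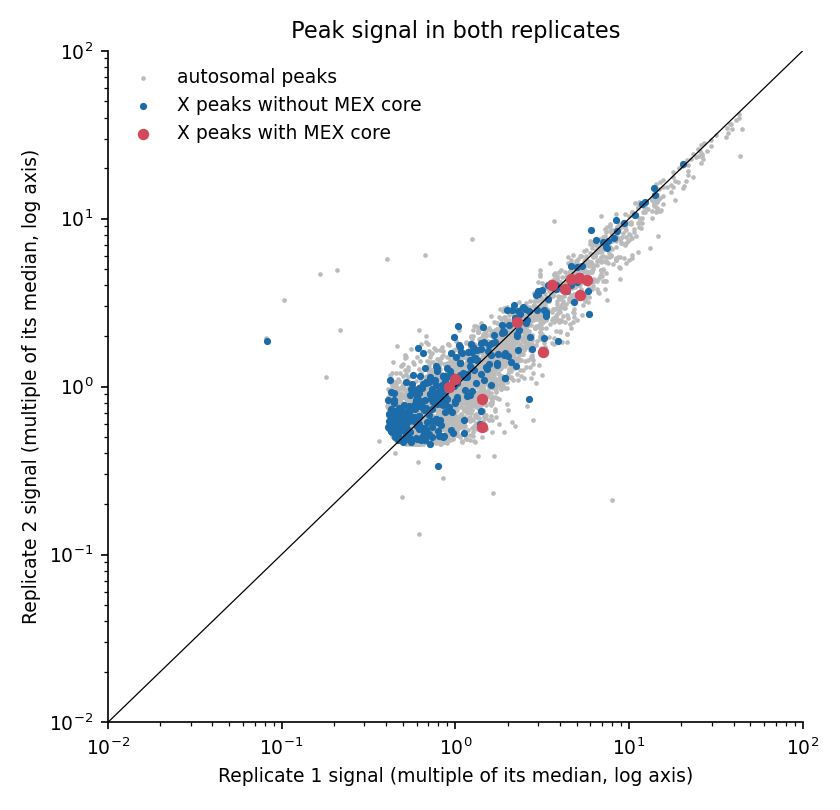
Each point is a peak with a match in both replicates' ranked lists, plotted by its signal in replicate 1 and in replicate 2 as a multiple of that replicate's median, on log axes with the line of equality. X peaks (blue) follow the autosomal cloud (grey), with the strongest at 20.6 and 21.1, and X peaks with the MEX core (red) range from 0.926 to 5.74 in replicate 1.

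Presence in the thresholded lists, which are themselves limited by strength, fell with signal. In the strongest of 4 equal groups of X peaks 98.9% were in both replicates' thresholded lists, followed by 84.3%, 30.3% and 6.74%. The autosomal shares were 99.8%, 91.3%, 35.7% and 9.77%. The greatest excess in replicate 1 stood upstream of bet-2, a gene of the BET bromodomain family, at chrX:10568465-10569170, with 2.64 in replicate 1 and 0.843 in replicate 2. This peak shares its interval with a stronger one of signal 423 (2.64 and 2.80), and both took the same peak of replicate 1, so the excess is that of a doubled call. The greatest excess in replicate 2, 1.86 against 0.0822, came from a peak of signal 18.5 at chrX:9465670-9466088 that likewise shares its interval with a peak of signal 473 (3.92 and 1.86), and both took the same peak of replicate 2. In all, 35 of the 357 peaks overlapped another X peak, and all 9 peaks with a signal under 20 lay within 1000 bp of a peak over 2 times as strong.

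Promoters held the largest share of X summits. A promoter window ran from 1000 bp before a protein-coding gene's 5′ end to 200 bp past it, and 183 of 357 summits, or 51.3%, were inside such a window. Such windows make up 17.6% of X bases, and 53.9% of all conservative peaks are promoter-proximal. The autosomal share was 56.6%, with windows over 22.3% of bases. Intergenic summits took a larger share of the X peaks, 24.9% against 12.9% on the autosomes, and intergenic bases also made up more of X (28.6% against 20.02%). Per Mb of chromosome they were about as dense, at 5.02 on X and 5.20 on the autosomes, and per Mb of intergenic sequence X had fewer, 17.55 against 25.96. Exons held 4.76% of X summits and 21.2% of X bases, introns 16.0% of summits and 28.9% of bases, and the 500 bp after a gene 3.08% of summits and 3.69% of bases. The median signal on X was 171 at promoters, 124 at gene ends, 116 between genes, 102 in introns and 94.4 in exons. From the strongest to the weakest of the 4 groups, the promoter share fell from 73.3% through 56.2% and 41.6% to 33.7%.

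**Figure D3:**
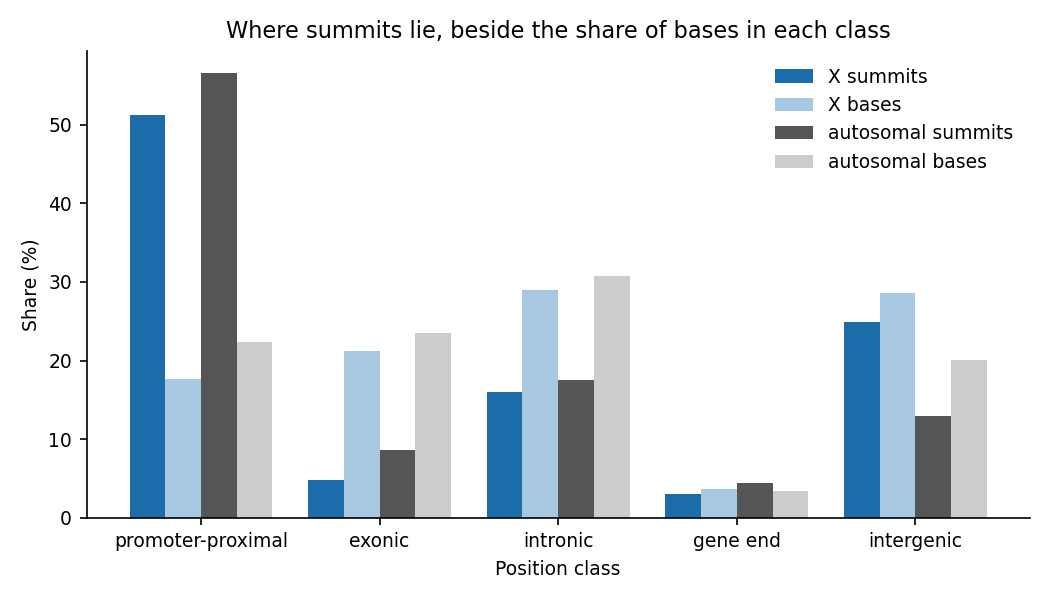
Bars give, for each position class, the percentage of summits and of bases on X (blues) and on the autosomes (greys). Promoters hold 51.3% of X summits on 17.6% of X bases, and intergenic summits are 24.9% on X and 12.9% on the autosomes.

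X promoter summits lay somewhat farther from the gene start. Upstream positions made up 90.2% of the 183 summits, with a median of -237 bp and quartiles of -470.5 and -113 bp, where the autosomal median was -177 bp. Windows of genes on both strands held 20 of the X summits (10.9%) and 32.6% of the autosomal ones. Such shared windows are also rarer on X, at 3.74% of its promoter bases against 10.7%. Of the X summits 87.4% fell to 1 gene alone, against 64.4% on the autosomes.

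**Figure D4:**
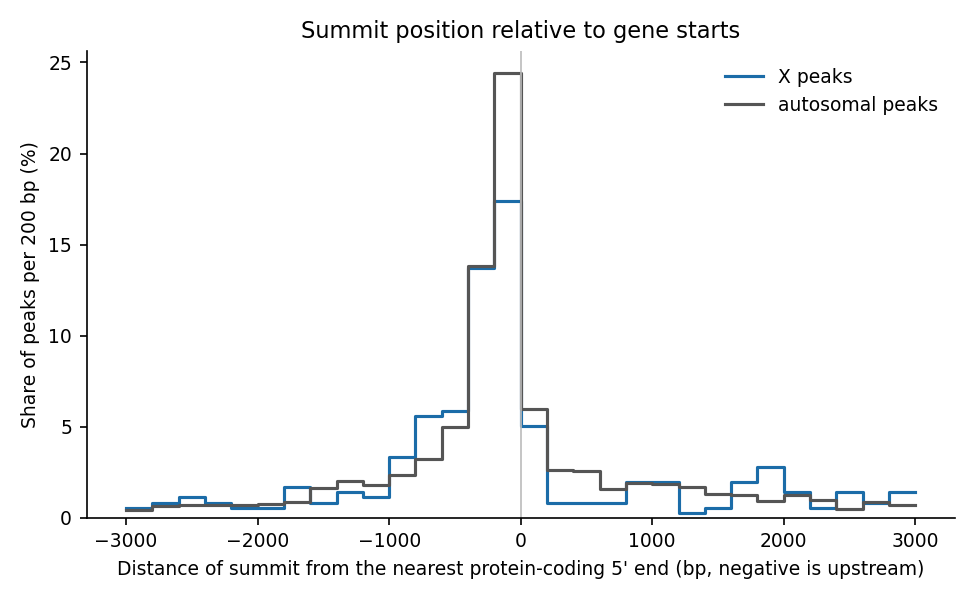
The horizontal axis is the distance of each summit from the nearest protein-coding 5′ end in bp, negative upstream, and the vertical axis the percentage of peaks per 200 bp. Both X (blue) and autosomal peaks (grey) are most frequent just upstream of the gene start, and X has fewer in the 200 bp nearest to it.

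The strongest X promoter belonged to puf-9, which encodes a Pumilio-family RNA-binding protein (WBGene00004245, X, 5841592 to 5845987, plus strand). Its peak at chrX:5841069-5841528 had its summit 286 bp upstream and a signal of 3191, rank 32 of the whole list. The replicates gave 20.6 and 21.1 times the median (mean 20.8 ± 0.349 SD, n = 2), which stood well above all other X peaks. The next, at chrX:768072-768494, lay between trap-2, for a subunit of the translocon-associated complex of the endoplasmic reticulum (ER), and ile-2, for a lectin of the secretory pathway. It gave 13.9 and 15.2 (mean 14.5 ± 0.911), with the summit 216 bp upstream of trap-2 and 311 bp upstream of ile-2.

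Of the other strong promoters, 4 belong to genes with a known role in the ER. They were put side by side after the values were seen, and no share over all such genes was counted. The protein disulfide isomerase gene pdi-6 gave 10.9 and 10.5 (chrX:7068382-7068766, summit 11 bp upstream). The transcription factor gene atf-6, which acts in the ER stress response, gave 8.37 and 9.77 (chrX:12480473-12480851). At serp-1.1, named for a stress-associated ER protein, replicate 2 was higher, with 6.04 and 8.53 (mean 7.29 ± 1.76). At hsp-3, which encodes an ER chaperone of the BiP type, the values were 5.00 and 4.21 (mean 4.60 ± 0.559). All these genes except serp-1.1 had GAGCG in the window at the summit.

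Strong peaks also lay at mitochondrial genes, again a description of single sites. The peak between nmat-1, for an enzyme of NAD synthesis, and ucr-2.1, for a core subunit of respiratory complex III, gave 12.3 and 12.6 (chrX:12017954-12018350). The peak at asg-2, for an ATP synthase subunit, gave 7.48 and 6.65 and also lay in the window of glr-6, a glutamate receptor gene whose 5′ end was 313 bp away against 225 bp for asg-2. Replicates at both sites differed far less than these peaks differed from the median.

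The other named genes of the 20 strongest have varied roles. The lipid kinase gene ppk-3 gave 9.37 and 9.49, and the exchange factor gene pix-1 gave 7.56 and 7.35. The heparan sulfate 6-O-sulfotransferase gene hst-6 gave 7.06 and 7.31, and rbg-1, for a Rab GTPase-activating protein, gave 4.62 and 5.22 in a peak that also lay in the window of plp-2. At csb-1, the worm homologue of a DNA repair gene mutated in Cockayne syndrome, the values were 7.40 and 6.74, with F53H4.4 nearer to the summit. Among the remaining strongest promoters sym-4 gave 8.52 and 8.50, the closest replicate values of these genes.

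Genes known by sequence name filled the rest of the 20. ZC506.1 gave 14.2 and 13.8, F10D7.5 gave 8.24 and 7.67 from a summit 757 bp upstream, and C18B12.4 gave 6.44 and 7.51. K10B3.5 gave 5.38 and 5.24, R07E4.3 with R07E4.5 gave 4.99 and 5.15, and T04F8.2 gave 5.201 and 4.54. Replicate ranges of neighbours overlapped along the 20, among them trap-2 with ZC506.1, and atf-6 with ppk-3 and sym-4, so the order of such neighbours is not firm.

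**Figure D5:**
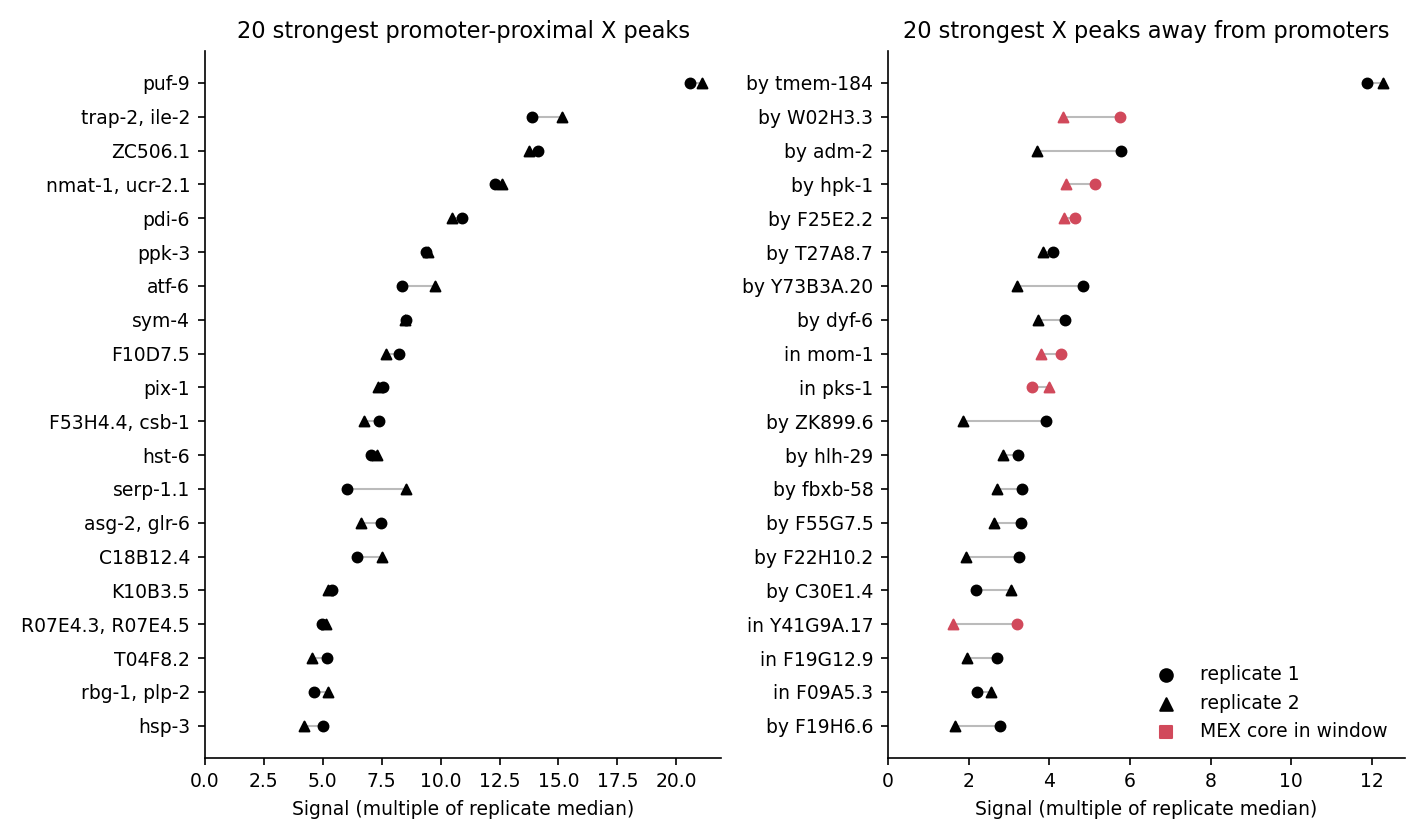
Signal as a multiple of the replicate's median is plotted for the 20 strongest promoter-proximal X peaks (left) and the 20 strongest X peaks away from promoters (right), with replicate 1 as circles and replicate 2 as triangles. Red marks a MEX core in the 100 bp window at the summit, and "in" and "by" name the gene that holds the summit or lies nearest. The MEX core is at 6 of the 20 peaks on the right and at 0 of the 20 on the left.

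Away from promoters, 1 peak stood apart. It lay between genes at chrX:14708156-14708612 and gave 11.9 and 12.3 times the median (mean 12.1 ± 0.289). The closest gene was tmem-184, and the summit lay 1516 bp upstream of its 5′ end. That is outside the 1000 bp promoter window but inside the alternative window of 2000 bp. The 100 bp window of this peak held GAGCG 2 times, 1 of them followed after 3 bases by TTGC, and no MEX core. The next intergenic peaks, at chrX:11094003-11094396 and chrX:13700650-13701083, gave 5.74 and 4.33, and 5.78 and 3.70. Replicate 1 was the higher at both.

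Inside genes and at their ends the signals were lower. The leading exonic peak lay in pks-1, which encodes a large polyketide synthase, with 3.58 and 4.001 (chrX:5429367-5429705). The exonic peaks of F19G12.9 (2.70 and 1.97) and of mai-1, an ATPase inhibitor gene (1.07 and 1.39), had their summits 303 and 290 bp downstream of the 5′ end, just past the promoter window. In introns the strongest were in mom-1, the Porcupine homologue of the Wnt pathway (4.29 and 3.804), Y41G9A.17 (3.20 and 1.61) and F09A5.3 (2.20 and 2.56). The peaks after F25E2.2 (4.63 and 4.36), T27A8.7 (4.10 and 3.86) and F19H6.6 (2.77 and 1.67) led at gene ends.

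Short words were counted in the 100 bp windows of X and autosomal peaks. The windows were compared with all 177189 windows of 100 bp tiled over X, and each word was counted on both strands. GAGCG was present at 92 of the 183 X promoter summits (50.3%), at 34.8% of autosomal promoter summits and in 5.73% of X tiles. At summits away from promoters the order was the other way, with 21.8% on X and 26.4% on the autosomes. Among X promoter summits the median signal was 244 with the word and 128 without it, and autosomal promoter summits showed the like, with 313 and 167. The word lay a median of 19.5 bp from the summit at X promoters and 18 bp at autosomal ones. With TTGC following after 3 bases, the longer form was at 37 of 183 X promoters (20.2%), at 15 of the 20 strongest, at 13.0% of autosomal promoters and in 0.107% of X tiles. Away from promoters it was at 2.30% of X summits and 8.25% of autosomal ones.

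The windows on X were also richer in G and C, with a mean of 52.03% against 48.2% on the autosomes, although whole X (35.2%) and the whole autosomes (35.5%) are alike. The difference lay mostly at promoters, where the means were 53.8% on X and 47.1% on the autosomes. Away from promoters they were 50.2% and 49.6%. The part of base composition in the word counts was not tested. Other words rich in G and C had like shares, with CGCG at 44.5% on X and 46.9% on the autosomes, and GCGCGC at 10.6% and 11.8%. At X promoter summits these 2 words were at 54.1% and 15.85%, beside 8.24% and 0.569% of X tiles. A higher share at summits than in tiles was therefore not particular to GAGCG. The AP-1 site TGACTCA was at 8 X windows (2.24%) and 0.603% of autosomal ones, beside 1.08% of X tiles. TTTGAA, known as the cell cycle genes homology region, was at 8.40% of X windows and 17.7% of autosomal windows, both below the 29.0% of X tiles.

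The MEX core, with that largest ratio, was rare in absolute terms. It was present at 13 of 357 X summits (3.64%) and at 2 of 3319 autosomal summits (0.0603%), beside 72 of 177189 X tiles (0.0406%) and 0.0257% of autosomal tiles. GAGCG was in 0 of the 13 windows. The positions were 5 intergenic, 2 intronic, 1 exonic, 2 at gene ends and 3 promoter-proximal. So 10 of 13 were away from promoters, where the core was at 5.75% of 174 X summits against 0.0694% on the autosomes.

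The 13 peaks were among the stronger ones on X. Their median signal was 399, from 147 to 780, against 128 for the other 344 X peaks. The median multiple was 3.20 in replicate 1 and 2.96 in replicate 2, where the other X peaks had 0.830 and 0.920. The peak nearest xol-1, without a match in replicate 2, does not enter the replicate 2 median. All 13 were in replicate 1's own thresholded list and 11 in that of replicate 2. The window in the intron of Y41G9A.17 (3.20 and 1.61) held the full consensus, in which TC precedes and AG follows the core.

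Single sites showed the same spread. The peak nearest W02H3.3 gave 5.74 and 4.33, that nearest hpk-1 gave 5.14 and 4.41, and that upstream of nspc-17 gave 5.19 and 3.51. The weaker ones, named after their values were seen, included ins-39, a gene of an insulin-like peptide, with 2.26 and 2.41, R04E5.9 with 1.00 and 1.11, and an intergenic site nearest dpy-23 with 0.926 and 1.00. Of the 13 peaks, 9 were among the 100 strongest on X.

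Read from the genome, the core occurs 81 times on X and 22 of these (27.2%) lay inside an X peak outside tRNA genes, with 233 autosomal occurrences of which 10 (4.29%) lay in an autosomal peak. The longer consensus was more selective. It occurs 3 times on X, each inside such a peak, and 0 times on the autosomes. With up to 1 mismatch it occurs 32 times on X, 19 (59.4%) of them inside a peak, and 37 times on the autosomes, 1 (2.70%) inside a peak. These are occurrences, and some share a peak. Counted as X peaks, 18 held the core anywhere in the peak and 15 held the consensus with up to 1 mismatch. By replicate, 17 of the 32 X occurrences lay in a peak of replicate 1's own thresholded list and 14 in one of replicate 2's. With up to 2 mismatches the shares were 39 of 284 on X and 37 of 1362 on the autosomes.

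The word GCGAAGGG, chosen after its occurrence was seen, was at 12 of 357 X summits (3.36%). Of these 11 were among the 174 away from promoters (6.32%). It was at 4 autosomal summits, 0.160% of the promoter-proximal and 0.0694% of the others, and in 0.0739% of X tiles and 0.0534% of autosomal tiles. As it differs from the MEX core in a single letter, some copies are also counted above in the consensus with mismatches. The MEX core stood beside GCGAAGGG at 6 X summits. Together the 2 words were at 19 X summits, 16 away from promoters, and at 10 of the 20 strongest X peaks away from promoters. GAGCG was at 4 of these 20. The files hold no measurement of the dosage compensation complex in these animals.

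Counted by gene, 197 of 2731 protein-coding genes on X had a promoter-proximal summit (7.21%), against 13.9% of autosomal genes. Genes with a symbol had one more often than genes known by sequence name, at 132 of 1344 (9.82%) against 65 of 1387 (4.69%). The counts of gene lists below are to be read beside 7.21%, and lists with few genes on X carry little weight.

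Lists of broadly used genes ranged from a summit at all of their few X genes to none. Their autosomal shares were all above the 13.9% of autosomal genes. All 3 genes of the respiratory chain and ATP synthase list on X had a summit (57.8% on the autosomes): ucr-2.1, its relative ucr-2.2 (1.64 and 1.82) and the succinate dehydrogenase gene sdha-1 (1.52 and 1.27). The list does not hold asg-2. All 3 vacuolar ATPase genes had one too (52.9% on the autosomes), with vha-12 at 1.92 and 1.58 and vha-20 at 0.582 and 0.659, and vha-15 without a match in replicate 1 and at 0.477 in replicate 2. Of 5 chaperone genes 2 had one (46.3% on the autosomes), hsp-3 and dnj-14 (3.41 and 4.05, with glit-1 nearer), and of 3 small GTPase genes 1, rab-14 (0.826 and 0.915), where the autosomal share was 25%. The single gene on X in the list of translation factors and tRNA synthetases, eef-1A.2, gave 1.91 and 2.12 (53.1% on the autosomes). The 2 ribosomal protein genes on X had none, where 68 of 79 autosomal ones did.

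Neuronal and sensory families had few summits on X, and few on the autosomes. Ion channel and receptor genes had 1 of 66 on X, glr-6, whose peak lay nearer asg-2, and 0 of 148 on the autosomes. Neuropeptide genes had 1 of 34, ins-39, against 0.943% on the autosomes. Chemoreceptors had 0 of 33, against 0.941%. Among other lists, bHLH factors had 0 of 6, adhesion and matrix genes 0 of 6, and cuticle collagens 1 of 27, col-44 (0.435 and 0.537). The autosomal shares of these lists were 10.5%, 8.33% and 3.88%. The summit counted for col-44 lay 728 bp upstream of it, inside the neighbouring collagen gene col-9. Of 16 unc genes 2 had one, the actin-binding protein gene unc-115 (0.987 and 1.01) and the nuclear envelope gene unc-84 (0.637 and 0.821). The autosomal share of unc genes was 21.8%. Detoxification enzymes had 0 of 14 (4.09% on the autosomes) and C-type lectins 0 of 3 (3.38%). Proteasome and ubiquitin genes had 0 of 7 and histones 0 of 4, although their autosomal shares were high, at 42.3% and 27.9%.

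Regulators on X gave mixed counts. Homeobox genes had 2 of 25, ceh-39 (2.99 and 3.69), which is also an X signal element in sex determination, and ceh-93 (0.832 and 0.874). Nuclear hormone receptors had 3 of 27: nhr-48 (0.788 and 1.30), nhr-1 (no match in replicate 1, 1.23 in replicate 2) and nhr-71 (0.539 and 0.623). Of 7 dosage compensation and sex determination genes on X, ceh-39 was the 1 with a summit. Heterochronic genes had 2 of 5, the microRNA pathway gene ain-1 (0.775 and 1.32) and the timing regulator lin-14 (0.832 and 0.509). On the autosomes the shares were 4.55% for homeobox genes and 4.45% for nuclear hormone receptors. They were 20% for dosage compensation and sex determination genes and 25% for heterochronic genes.

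The vitellogenin genes encode yolk proteins and include near-identical copies, so reads there may be shared between copies. Of 5 on X, vit-2 (0.711 and 1.08) and vit-5 (0.715 and 0.455) had a summit, both downstream of the 5′ end, at 92 and 132 bp. Of 2 synMuv genes on X, lin-15B had one, 949 bp upstream, with 0.766 and 0.877. On the autosomes 10 of 17 synMuv genes (58.8%) had a summit, as did 0 of 1 vitellogenin gene.

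Among noncoding genes other than those for tRNA, none of the 357 X summits lay within 200 bp of any of 74 miRNA genes. Of 33 snoRNA genes 2 were near a summit: D2021.6, at the peak of the sdha-1 promoter, and K09E9.5, at an intergenic peak of 0.538 and 0.548. Annotated ncRNA genes were near 65 peaks, or 18.2%, with 91 of 2520 such genes, lincRNA genes near 2 peaks and pseudogenes near 3. The share of X bases that close to such genes, and the autosomal share, were not counted. These counts, including the absence at miRNA genes, therefore cannot be read as high or low.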

How the data were processed

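The authors deposited peak lists on ce11, per the labels: a conservative and a pooled list made from both replicates, and thresholded and ranked lists for each replicate. The deposited signal value is the peak caller's own measure, and the deposited score, a whole number, follows the irreproducible discovery rate and had been used by the authors to limit the thresholded lists. For aligner and peak caller, neither name nor setting is given in the sources used here. Per-sample columns of the series' ranked lists, 4 in number, carry no sample name and were not used. Depth is unknown, since the peak lists hold no counts of reads.

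Replicate values came from the overlapping ranked peak with the nearest summit, divided by that replicate's median over the conservative list (87.3 and 66.7). Genes were Ensembl release 115 models, sequence was RefSeq WBcel235, and a summit counted for each gene whose window held it. Coordinates count from 1. Python 3.11.15, numpy 2.4.6 and scipy 1.17.1 were used, with matplotlib 3.10.9 for plots, and counting was checked on simulated data. The text names the genes of the 20 strongest promoter peaks, the 3 strongest of each other class, up to 3 X genes per list with the strongest peak, peaks at the tRNA limit, replicate extremes, and sites by miRNA or snoRNA genes. The 25 gene lists, 24 motifs and the peaks themselves were chosen with earlier results of these data known. No test was made.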

Additional observations from a re-analysis of the deposited data

How the results depend on the processing

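Of 55 alternative values, 24 stayed within the replicate spread or, for counts, within 1.5 times, and 31 moved; no ratio of X to autosomes crossed 1. With peaks at or above the median signal alone, 155 peaks remained, the density ratio was 0.430, the promoter share 66.5%, the signal ratio 0.949, the gene share 4.25% and the MEX core share 7.74%. With tRNA peaks kept these were 0.578 (density), 44.3% (promoters), 7.54% (genes) and 3.02% (MEX core). The pooled list gave 48.9% promoter summits and 7.95% of genes. Windows reaching 2000 bp upstream gave 57.7% and 8.97%, and windows of 500 bp upstream and 100 bp downstream 37.8% and 5.38%. The nearest gene alone gave 6.48% of genes. Leaving out 1 replicate, by using the other's own list, gave 280 to 291 peaks, density ratios of 0.479 to 0.509, promoter shares of 54.3% to 55.7%, signal ratios of 0.823 to 0.905, gene shares of 6.08% to 6.19% and MEX core shares of 3.93% to 4.81%. A reciprocal overlap of 50% lowered the share found in replicate 1 to 58.3% (61.5% over all peaks) and in replicate 2 to 59.9% (57.9% over all peaks), so in replicate 2 the X share was then the higher of the pair. The causes were not tested. Dropping weaker overlapping peaks (340 left) and the MEX consensus with up to 2 mismatches (5.88%) were added after seeing the data. No paired analysis was possible because there is 1 group. Unknown depth and the missing control limit all values, and 77 peaks lacked a counterpart in either replicate's own thresholded list.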
